A study of Rattus norvegicus with 145 samples.

Results

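ATP-binding cassette (ABC) transporters use the energy of ATP to move substrates out of cells, and in liver they send drugs, conjugates, phospholipid and sterol into bile or back into blood. The genes described here are 9 ABC efflux transporter genes, namely Abcb1a, Abcb1b, Abcb4, Abcc2, Abcc3, Abcc4, Abcg2, Abcg5 and Abcg8. They were taken by symbol from the 17337 genes listed in 5 count tables of rat liver RNA-Seq, and all 9 passed the filter on low counts in every table. Because they were picked with their levels against dose in view, every comparison of a dose with vehicle is given for them as a description, with no p-value. For these 9 genes, tests were kept for the differences between vehicle groups, which no dosed rat enters, and for the variation between rats of the same group. The latter includes dosed rats, whose spread may not be independent of that choice.

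Rats received acetamide, an industrial amide that causes liver tumours in rats, by daily gavage in water for 7 or 28 days, and the left liver lobe was sampled on day 8 or day 29. In experiment A, male Hsd:WI Wistar rats aged 9-10 weeks received vehicle alone (0 mg/kg/day, mkd) or acetamide at 1 of 4 doses, which were 1000, 300, 100 and 30 mkd, and were sampled on day 8. Experiment B used Crl:WI Wistar rats aged 8-10 weeks of both sexes, at 0, 300, 500, 750, 1000 or 1500 mkd, sampled on either day. Each of the 29 groups held 5 rats, and every rat, the controls included, was gavaged with the water vehicle, fasted overnight and sampled after its last dose. The vehicle males of day 29 carry the exposure label of experiment A, but their strain, age and title are those of experiment B, and they were used as such. Rats were housed in pairs, and cage mates may be more alike than other rats of a group, which was not tested.

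Reads counted on genes numbered 15449716 to 39986531 per rat, with a median of 28262376, and the lowest count of any of the 9 genes in any rat was 13. Levels are CPM, counts scaled to a common library size with edgeR's TMM factors within a table, so they compare rats of a table and not the abundance of different genes, whose transcript lengths differ. The sex labels held in every rat: the Y-linked gene Eif2s3y was at 27.2 to 83.9 CPM in males and 0 to 0.81 CPM in females. Of the 10 hepatocyte markers examined, 0 was at 0 throughout any vehicle or highest-dose group, which is a weak check of the liver label. A gene was called where it changed at least 1.5-fold with an FDR, the p adjusted by Benjamini-Hochberg over all genes of the table, of at most 0.05 (edgeR). In liver as a whole, fewer cells of a type and less RNA per cell cannot be told apart.

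Abcb1a and Abcb1b encode the rodent P-glycoproteins, pumps of the canalicular membrane with broad drug specificity, and the neighbouring gene Abcb4 encodes the exporter that puts phosphatidylcholine into bile. In the RefSeq annotation of the GRCr8 rat assembly the 3 genes follow each other with 0 protein-coding genes between them. Abcb1a and Abcb1b are closely related copies, so some short reads may be shared or lost between them, and their separate levels are uncertain to that extent. The 300 bases from 250 before to 50 after each start, shown because Abcb1b was called in several dose groups and its neighbour Abcb1a in none, lie on the minus strand at chr4:26279980-26280279 for Abcb1b and chr4:26397599-26397898 for Abcb1a (RefSeq, GRCr8, 5′ to 3′). Capitals mark the stretches of at least 12 bases that both windows hold.
Abcb1b: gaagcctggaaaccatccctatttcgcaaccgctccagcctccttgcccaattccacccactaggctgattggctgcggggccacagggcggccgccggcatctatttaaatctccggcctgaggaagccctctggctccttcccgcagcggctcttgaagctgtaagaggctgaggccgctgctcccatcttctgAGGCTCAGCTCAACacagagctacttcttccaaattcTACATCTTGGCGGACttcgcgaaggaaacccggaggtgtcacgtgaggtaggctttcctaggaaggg
Abcb1a: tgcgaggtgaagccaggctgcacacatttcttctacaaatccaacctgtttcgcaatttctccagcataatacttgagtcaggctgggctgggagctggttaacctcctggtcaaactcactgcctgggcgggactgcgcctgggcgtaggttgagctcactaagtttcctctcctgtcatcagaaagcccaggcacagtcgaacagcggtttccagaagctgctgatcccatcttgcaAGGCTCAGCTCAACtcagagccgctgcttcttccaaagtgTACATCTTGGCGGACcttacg
The windows shared 2 such stretches, of 14 and 15 bases. Searched on both strands, the Abcb1b window held 2 CCAAT boxes (CCAAT, in 37.5% of 33469 rat windows of this length), 1 GC box (GGGCGG, 33.1%) and 1 E box (CACGTG, 6.42%). The Abcb1a window held 1 GC box and 1 AP-1 motif (TGANTCA, 7.33%), and neither a CCAAT box nor an E box. These matches describe the letters only.

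Abcb1b was the member with the largest differences from vehicle. In experiment A the vehicle rats were at 4.38, 5.55, 5.26, 7.50 and 8.17 CPM. At 1000 mkd the rats were at 84.3, 69.5, 53.5, 38.3 and 48.5 CPM, a mean of 58.8 ± 18.2 against 6.17 ± 1.59 CPM (SD, n = 5). All 5 rats lay above every vehicle rat, as they did for 9.01% of genes in this comparison, and the log2 fold change was 3.25 (SE 0.33). Lower doses overlapped vehicle, with means of 8.44 ± 1.39 CPM at 30 mkd, 7.38 ± 3.74 CPM at 100 mkd and 11.5 ± 3.13 CPM at 300 mkd.

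Females of day 8 were above vehicle from the lowest dose. Vehicle females were at 3.63, 3.98, 1.74, 5.78 and 3.03 CPM, and those given 300 mkd at 31.2, 37.6, 45.0, 13.6 and 11.1 CPM. The 300 mkd females did not overlap vehicle (as for 0.244% of genes), and the log2 fold change was 2.94 (SE 0.50). At this dose Abcb1b was the single called gene of 11497 tested by edgeR (0.00870% of genes called). DESeq2, run here on 14606 genes, also called it alone. The study's own count for this group lists its only called gene as lower, and this difference was not examined. Means then ran 34.1 ± 24.6 CPM at 500 mkd, 44.8 ± 17.2 CPM at 750 mkd, 58.4 ± 23.7 CPM at 1000 mkd and 47.5 ± 18.8 CPM at 1500 mkd. The 1500 mkd rats were at 25.9, 62.0, 64.5, 56.5 and 28.4 CPM. Every treated rat at every dose exceeded the highest vehicle rat, which held for 0.565%, 1.90%, 1.82% and 1.65% of genes from 500 to 1500 mkd. The log2 fold changes from 500 mkd up were 3.23 (SE 0.51), 3.63 (SE 0.51), 4.01 (SE 0.52) and 3.71 (SE 0.52). The dose groups overlapped one another within their SDs, so no order among the 5 doses stood out.

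Females of day 29 differed from vehicle at the higher doses. Vehicle rats were at 11.5, 5.41, 4.65, 3.22 and 6.88 CPM, and the means were 8.91 ± 4.81 CPM at 300 mkd, 12.3 ± 6.93 CPM at 500 mkd and 21.0 ± 10.6 CPM at 750 mkd. At 1000 mkd the rats were at 49.8, 27.1, 55.9, 109.8 and 79.2 CPM and at 1500 mkd at 84.0, 25.8, 39.3, 75.5 and 13.1 CPM. All 5 rats of both groups lay above every vehicle rat (2.79% and 3.51% of genes did so), while 4 of 5 did at 750 mkd. The log2 fold changes were 3.34 (SE 0.54) and 2.90 (SE 0.53), both meeting the call criteria.

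Males of experiment B met the criteria at 1500 mkd on day 8 and at no dose on day 29. On day 8 the vehicle males were at 1.60, 1.51, 1.54, 8.50 and 3.88 CPM, with replicate 4 above the rest, and the 1500 mkd males at 23.9, 24.7, 20.1, 20.8 and 33.5 CPM. All 5 lay above vehicle (1.45% of genes did so), with a log2 fold change of 2.88 (SE 0.62), while the 1000 mkd rats ran from 1.85 to 36.6 CPM and overlapped vehicle. The call at 1500 mkd was lost when any of 6 single rats was left out (vehicle replicates 1, 2 and 3 and treated replicates 1, 3 and 4), at log2 fold changes of 2.69 to 2.95. On day 29 the vehicle males were at 6.37, 0.900, 1.22, 2.83 and 5.20 CPM and the 1500 mkd males at 9.89, 6.80, 22.7, 5.24 and 2.76 CPM. Here 3 of 5 treated rats exceeded every vehicle rat and the log2 fold change was 1.52 (SE 0.71).

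**Figure D1:**
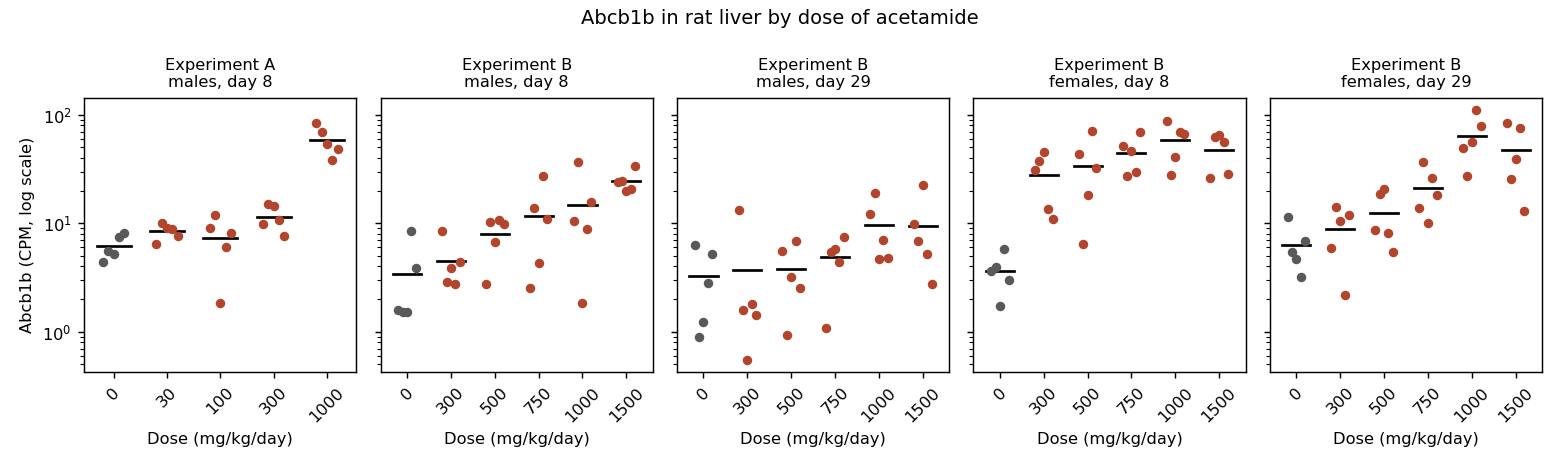
Abcb1b in each rat, in CPM on a log scale (vertical axis), against the dose of acetamide in mg/kg/day (horizontal axis), with 1 panel per table. Grey points are vehicle rats, red points treated rats and bars group means of 5 rats. In females of day 8 all treated groups sit above vehicle, with means of 27.7 to 58.4 CPM against 3.63 CPM, whereas in males of day 29 vehicle and treated rats overlap at every dose.

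Markers of dividing cells had a higher median sum at the highest dose than in vehicle in all 5 tables. The 6 cell cycle markers examined were Mki67, Top2a, Ccnb1, Cdk1, Birc5 and Tpx2. They summed to 11.7 to 51.9 CPM in vehicle rats of experiment A and 64.2 to 163 CPM at 1000 mkd. There 6 of 6 were called up (21.4% of all genes called). Females of day 8 ran from 8.84 to 21.4 CPM in vehicle and 30.7 to 115 CPM at 1500 mkd, with 2 of 6 called up (0.705% of all genes). Females of day 29 ran from 10.4 to 17.0 and 28.6 to 104 CPM, with 6 of 6 called up (13.1% of all genes). Males of day 8 ran from 13.1 to 59.7 and 40.5 to 139.9 CPM, with 1 of 6 called up (0.177% of all genes). In males of day 29 the 1500 mkd rats ran from 11.5 to 869 CPM, against 9.39 to 29.4 CPM in vehicle. The highest was replicate 3, with the other 4 rats at 11.5 to 49.7 CPM, and 6 of 6 were called up (4.91% of all genes called). Replicate 3, which the study identified as an outlier in Ki67 labelling, was also the highest of its group for Abcb1b (22.7 CPM). Abcb1b was not called there. At 1000 mkd in experiment A, 4 of 8 macrophage markers, 6 of 6 tested T and NK cell markers and 3 of 6 endothelial markers were called up. There 5 of 10 hepatocyte markers were called down, beside 21.4% of all genes called in either direction. The summed hepatocyte markers ran there from 251560 to 336160 CPM in vehicle and from 76844 to 245410 CPM at 1000 mkd. At 1500 mkd in females of day 29 (13.1% of all genes called) the same lists gave 3 of 8, 1 of 6 and 2 of 6 called up. Of the 10 hepatocyte markers, 3 were called down and 1 called up. No list marker was at 0 in every rat of these groups. The part these cells had in the levels of the transporters was not tested.

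Across the 24 dose groups, as differences from the vehicle mean of the same table, the genes whose pattern was most like that of Abcb1b were Mybl1 (Pearson's r = 0.90), Mybl2 (0.88), Sidt1 (0.88), Cenpk (0.88) and Ctc1 (0.87), among 11065 genes tested in all tables. The median over those genes was 0.027 and the 95th percentile 0.631. Mybl1 and Mybl2 encode MYB-family transcription factors, Cenpk a centromere protein and Ctc1 a telomere maintenance protein. Abcc3 stood at rank 152 (r = 0.74) and Abcb4 at rank 616 (0.62), whereas Abcb1a stood at rank 8029 (-0.29) and Abcg2 at rank 11027 (-0.83). Dose groups of a table share their vehicle rats, so these values are given as a description, over 24 points.

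Abcb1a met the call criteria in 0 of 24 dose comparisons. Its vehicle rats of experiment A were at 19.9, 12.1, 18.0, 9.54 and 12.7 CPM and the 1000 mkd rats at 22.4, 25.6, 14.2, 18.2 and 13.7 CPM, with a log2 fold change of 0.39 (SE 0.30). Vehicle females of day 8 were at 35.5, 40.2, 27.4, 42.0 and 44.6 CPM and the 1500 mkd rats at 39.4, 32.9, 26.9, 25.2 and 29.0 CPM, with a log2 fold change of -0.31 (SE 0.17). Both pairs of groups overlapped. Over all 24 comparisons its log2 fold changes ran from -0.57 to 0.45. Abcb4 ran from -0.47 to 0.55, with none called. In males of day 8 the vehicle rats were at 103, 64.0, 191, 162 and 159 CPM and the 1500 mkd rats at 159.7, 164, 203, 170.4 and 298 CPM, which overlapped.

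Of the multidrug resistance-associated proteins, Abcc3 (MRP3) and Abcc4 (MRP4) export conjugates and bile acids across the basolateral membrane into blood, and Abcc2 (MRP2) exports conjugates across the canalicular membrane into bile. The mean of Abcc3 was above that of vehicle at the highest dose in all 5 tables. In experiment A the vehicle rats were at 3.30, 2.00, 3.74, 3.10 and 3.71 CPM and the 1000 mkd rats at 4.90, 31.0, 4.17, 10.6 and 7.92 CPM. All 5 lay above vehicle (9.01% of genes did so), with replicate 2 far above the other treated rats, and the log2 fold change was 1.89 (SE 0.38). Without that rat it was 1.13, still called. At 30, 100 and 300 mkd the log2 fold changes were -0.06, -0.19 and -0.17. Members called at 1000 mkd in experiment A were thus Abcb1b and Abcc3, 2 of 9, where 21.4% of all genes were called.

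Abcc3 in females of day 8 was at 6.92, 13.5, 17.8, 14.3 and 23.3 CPM in vehicle and 18.9, 61.6, 93.5, 45.8 and 24.7 CPM at 1500 mkd, with a log2 fold change of 1.69 (SE 0.43). The groups overlapped and the gene was not called by edgeR, although DESeq2 called it. Day 29 females were at 16.4, 14.6, 16.5, 8.81 and 9.48 CPM in vehicle, 25.9, 21.6, 42.2, 27.2 and 25.1 CPM at 1000 mkd and 40.8, 59.2, 31.4, 48.0 and 12.8 CPM at 1500 mkd. All 5 rats lay above vehicle at 1000 mkd (2.79% of genes did so), and the 1500 mkd rats overlapped it through replicate 5. The log2 fold change at 1500 mkd was 1.55 (SE 0.37) and met the criteria, following 0.54, 0.57, 0.81 and 1.11 at the 4 lower doses.

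Males of day 29 had Abcc3 at 4.45, 3.34, 4.39, 2.29 and 2.93 CPM in vehicle and 10.2, 3.83, 24.1, 4.76 and 5.23 CPM at 1500 mkd. The log2 fold change of 1.47 (SE 0.37) met the criteria. This call rested on few rats. Without treated replicate 3 the log2 fold change was 0.72 and the call was lost, and the call was also lost without vehicle replicate 2 (1.45) or vehicle replicate 4 (1.30). The same treated replicate 3 had the highest sum of cell cycle markers in its group. The study identified this rat as an outlier in Ki67 labelling and left it out of its dose-response modelling. Males of day 8 were at 3.05, 5.74, 4.84, 4.86 and 3.30 CPM in vehicle and 5.67, 8.54, 5.05, 11.0 and 4.73 CPM at 1500 mkd. These overlapped, and the log2 fold change of 0.68 (SE 0.32) was not called.

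Abcc2 was below vehicle in males of day 29. Vehicle rats were at 603, 469, 716, 452 and 498 CPM and the 1500 mkd rats at 356, 303, 218, 292 and 267 CPM. All 5 treated rats lay below every vehicle rat at 500, 750 and 1500 mkd, as did 3.45%, 3.11% and 3.95% of genes. From 300 to 1500 mkd the log2 fold changes were -0.34 (SE 0.20), -0.60 (SE 0.20), -0.89 (SE 0.20), -0.69 (SE 0.20) and -0.93 (SE 0.20), of which the last 3 met the criteria. In the other tables edgeR called it at no dose, and its log2 fold changes at the highest dose ran from -0.66 in females of day 29 to -0.33 in experiment A. In those females DESeq2 called it at 1500 mkd (-0.67), as did edgeR without treated replicate 1 or vehicle replicate 3 (-0.81 for both).

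**Figure D2:**
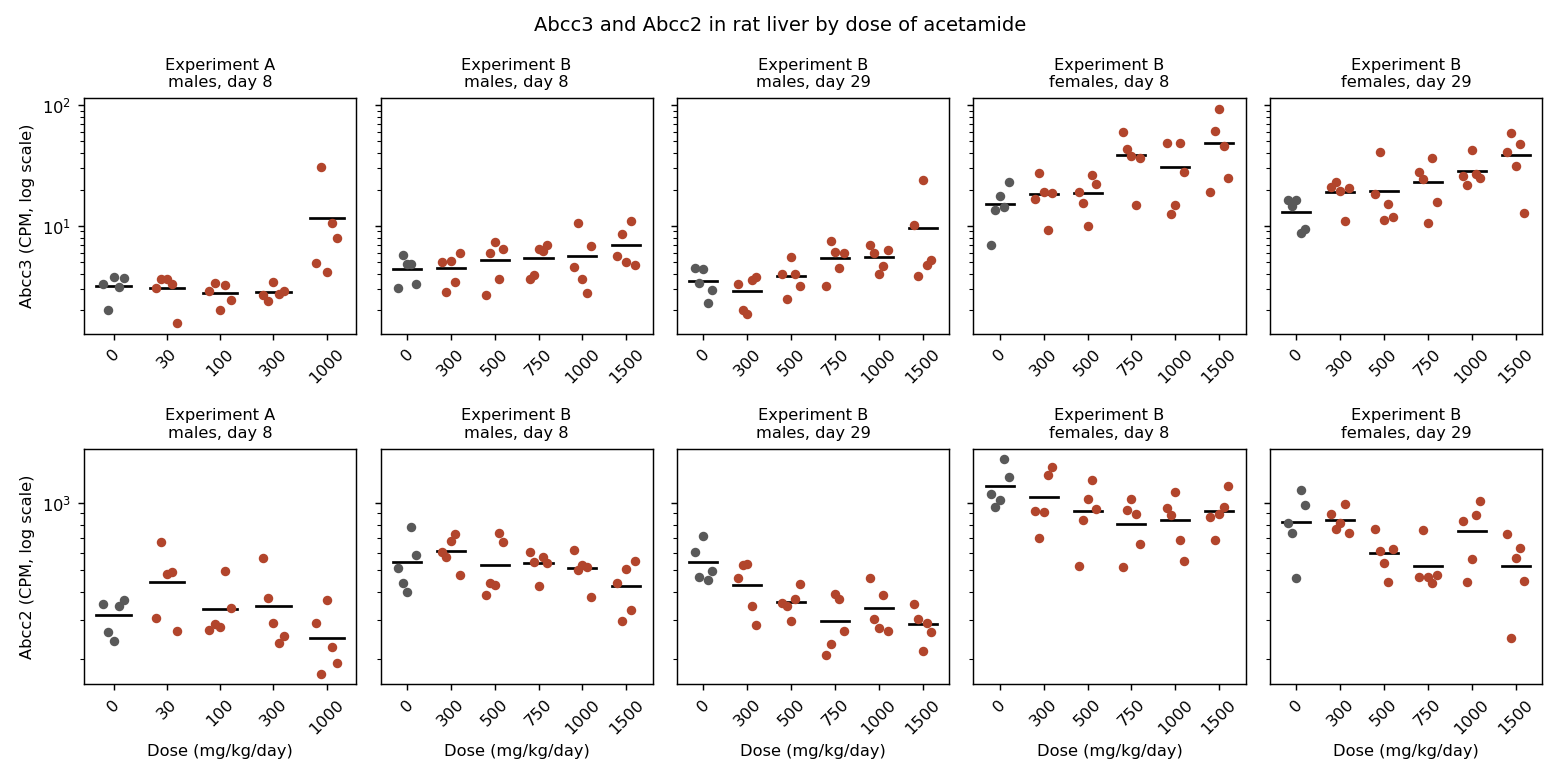
Abcc3 (upper panels) and Abcc2 (lower panels) in each rat, in CPM on log scales (vertical axes), against the dose of acetamide in mg/kg/day (horizontal axes), with vehicle rats in grey, treated rats in red and group means of 5 rats as bars. Abcc3 sits highest on average at the highest dose of each panel, with single high rats at 31.0 CPM in experiment A and 24.1 CPM in males of day 29, and Abcc2 in males of day 29 sits below vehicle, at a mean log2 fold change of -0.93 at 1500 mkd.

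The basolateral exporter Abcc4 was called in 0 of 24 comparisons. Its log2 fold changes over the 24 comparisons ran from -0.40 to 0.28, and all 5 rats lay below vehicle in males of day 29 at 1000 mkd (4.41% of genes did so). Its SD between rats of a group was 0.31 on the log2 scale, the lowest of the 9 genes and higher than that of 49.0% of 11890 genes.

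Abcg2 (BCRP) exports drugs and urate, and Abcg5 and Abcg8 form a heterodimer that secretes cholesterol and plant sterols into bile. Abcg2 was lower than vehicle on average in females of day 8, where vehicle rats were at 72.2, 30.3, 21.9, 11.8 and 37.6 CPM and the 1500 mkd rats at 26.4, 14.1, 12.6, 8.81 and 10.4 CPM. The groups overlapped, vehicle replicate 1 stood above the other vehicle rats, and log2 fold changes of -1.22 to -0.88 at the doses below the highest and -1.26 (SE 0.43) at it were not called. In the other tables its log2 fold changes ran from -0.71 to 0.53.

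Abcg5 and Abcg8 lie head to head on opposite strands, with start sites 206 bases apart in GRCr8. Their windows of 300 bases therefore overlap, at chr6:15717686-15717985 (plus strand, Abcg5) and chr6:15717681-15717980 (minus strand, Abcg8), and share 295 bases. The Abcg5 window is shown because the pair had the highest correlation of the 36 pairs of members (RefSeq, GRCr8, 5′ to 3′; capitals mark CCAAT and AGATAA in either orientation).
Abcg5: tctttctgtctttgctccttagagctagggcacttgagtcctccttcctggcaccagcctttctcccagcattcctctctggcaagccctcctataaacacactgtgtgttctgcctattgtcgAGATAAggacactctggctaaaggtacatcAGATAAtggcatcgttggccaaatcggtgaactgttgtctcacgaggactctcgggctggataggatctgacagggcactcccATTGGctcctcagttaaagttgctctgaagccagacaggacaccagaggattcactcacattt
The shared stretch held 1 CCAAT box, 1 TATA box (TATAAA, 14.2% of windows), 1 antioxidant response element core (TGACNNNGC, 12.1%) and 2 GATA motifs (AGATAA, 11.6%). Neither gene was called at any dose. At the highest doses the log2 fold changes of Abcg5 ran from -0.80 (SE 0.46) in experiment A to 0.20 (SE 0.25) in females of day 29, and those of Abcg8 from -0.43 (SE 0.42) in females of day 8 to 0.11 (SE 0.41). In experiment A, Abcg5 was at 36.8, 42.9, 32.0, 8.37 and 14.0 CPM in vehicle and 27.9, 8.47, 17.9, 10.6 and 12.1 CPM at 1000 mkd, which overlapped.

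**Figure D3:**
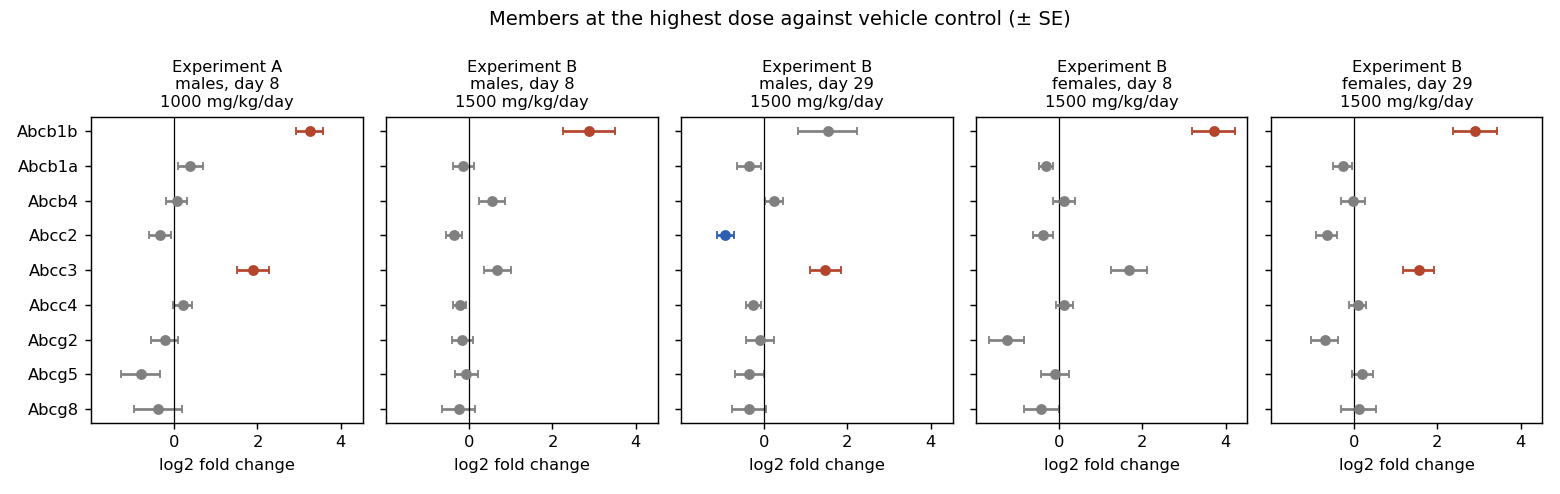
Log2 fold change of the 9 genes at the highest dose of each table against its vehicle control (horizontal axis), with bars of 1 SE, 5 rats a group. Genes that met the call criteria are red (higher) or blue (lower) and the others grey. Abcb1b lies at 1.52 to 3.71 and Abcc3 at 0.68 to 1.89, and Abcc2 in males of day 29 is the single blue point, at -0.93.

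Counted over each comparison, 1 of 9 members was called at 1500 mkd in males of day 8 (0.177% of all genes called), 2 of 9 in males of day 29 (4.91%), 1 of 9 in females of day 8 (0.705%) and 2 of 9 in females of day 29 (13.1%). At 1000 mkd the counts were 0 of 9 in males of day 8 (0% of all genes), 1 of 9 in males of day 29 (2.76%), 1 of 9 in females of day 8 (1.37%) and 1 of 9 in females of day 29 (1.59%). At 750 mkd 1 of 9 was called in males of day 29 (0.780%) and 1 of 9 in females of day 8 (0.0174%), at 500 mkd 1 of 9 in females of day 8 (0.0174%) and at 300 mkd 1 of 9 in females of day 8 (0.00870%). Beside these and the 2 of 9 in experiment A at 1000 mkd (21.4%), no member was called by edgeR in the remaining comparisons, in which 0 to 0.183% of all genes were (0.0349% at 500 mkd and 0.183% at 750 mkd in females of day 29, and 0% elsewhere). The genes were picked on these comparisons, so nothing is read from the counts.

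Among the other ABC genes, listed by family with earlier results of these data known, 39 of 48 listed symbols were in the files and 34 or 35 passed the filter. The members, picked on dose, were left out of this list. At the highest dose 6 of 34 were called up and 4 down in experiment A (21.4% of all genes called), 1 and 1 of 34 in males of day 29 (4.91%), 4 and 2 of 34 in females of day 29 (13.1%), and 0 in males (0.177%) and females (0.705%) of day 8 (edgeR, with 4 and 6 at an unadjusted p under 0.05, and 0 and 1 called by DESeq2). In experiment A their median log2 fold change was -0.06 against 0.00093 over all genes. Called in at least 2 tables were 5 genes, each of them in experiment A and in females of day 29. Abcg1, a cholesterol exporter of macrophages and other cells, rose from 6.53 ± 1.46 to 22.1 ± 7.37 CPM in experiment A, a log2 fold change of 1.76 (SE 0.23, adjusted p = 5.66e-05, edgeR) with 5 of 5 rats above vehicle (9.01% of genes did so). Females of day 29 had a rise from 8.96 ± 3.46 to 19.5 ± 6.18 CPM, by 1.13 (SE 0.24, adjusted p = 0.00207, edgeR) with 4 of 5 above. Abcc5, a cyclic nucleotide exporter, rose by 1.02 (SE 0.23, adjusted p = 0.00242, edgeR) with 5 of 5 rats above in experiment A (9.01% of genes), and by 0.97 (SE 0.23, adjusted p = 0.00411, edgeR) with 2 of 5 above in females of day 29. Abcc1 (MRP1) rose by 0.98 (SE 0.27, adjusted p = 0.00975, edgeR) and 1.05 (SE 0.24, adjusted p = 0.00345, edgeR), with 4 of 5 above in both. The bile salt export pump gene Abcb11 fell from 688 ± 162 to 387 ± 134 CPM in experiment A, a log2 fold change of -0.83 (SE 0.20, adjusted p = 0.00346, edgeR), and from 929 ± 296 to 525 ± 249.6 CPM in females of day 29, -0.82 (SE 0.25, adjusted p = 0.0204, edgeR), with 4 of 5 rats below vehicle in both. Abca8a fell in the same tables, with log2 fold changes of -0.97 (SE 0.20, adjusted p = 0.00105, edgeR) and -0.73 (SE 0.21, adjusted p = 0.0157, edgeR) and 4 of 5 rats below. Macrophage markers were called up in these same comparisons, 4 of 8 and 3 of 8, and their part was not tested.

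Of 14 tested nuclear receptors and other factors known to act on these transporter genes, 2 were called in experiment A at 1000 mkd (21.4% of all genes) and 1 in males of day 29 at 1500 mkd (4.91%), by edgeR. Nr1i2 (PXR), a xenobiotic receptor, fell from 297 ± 21.2 to 186 ± 77.8 CPM in experiment A at 1000 mkd, a log2 fold change of -0.67 (SE 0.20, adjusted p = 0.0140, edgeR). Rxra, the partner of many nuclear receptors, fell from 134 ± 15.0 to 50.4 ± 15.3 CPM in males of day 29 at 1500 mkd, a log2 fold change of -1.41 (SE 0.29, adjusted p = 0.00880, edgeR). There 5 of 5 rats lay below vehicle, as for 3.95% of genes. In the other 3 tables, at their highest dose, none of the 14 was called by edgeR (0 of 14), with 1, 2 and 4 at an unadjusted p under 0.05 in males of day 8, females of day 8 and females of day 29, and 1 called by DESeq2 in each.

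Vehicle rats differed by sex in members of the ABCC and ABCG families. These levels come from a fit of the 25 vehicle rats and so differ slightly from those above. On day 8, 5 of 9 members were called between females and males (7.95% of all genes were), and on day 29, 3 of 9 (11.8%). Groups that do not overlap made up 9.51% of genes on day 8 and 12.2% on day 29. The dose comparisons did not enter these tests. Abcc3 was at 5.89, 11.4, 15.2, 12.1 and 19.7 CPM in females and 2.93, 5.52, 4.62, 4.64 and 3.12 CPM in males of day 8, with 5 of 5 females above every male. The log2 difference, females minus males, was 1.62 (SE 0.27, adjusted p = 0.000191, edgeR) on day 8 and 1.81 (SE 0.28, adjusted p = 4.84e-05, edgeR) on day 29, again with 5 of 5 above.

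Abcg5 went the other way. It was at 14.9, 12.1, 7.93, 6.60 and 20.2 CPM in females and 25.0, 33.6, 55.3, 79.0 and 72.5 CPM in males of day 8, with 5 of 5 females below every male. The difference was -2.10 (SE 0.42, adjusted p = 0.00118, edgeR) on day 8 and -2.19 (SE 0.42, adjusted p = 0.000726, edgeR) on day 29, with 5 of 5 below on both days. Its partner Abcg8 was at 2.63, 4.90, 2.50, 1.17 and 5.46 CPM in females and 3.14, 9.18, 18.6, 22.5 and 10.6 CPM in males of day 8, overlapping, with 3 of 5 females below every male. That difference was -1.93 (SE 0.54, adjusted p = 0.0212, edgeR), and -2.05 (SE 0.55, adjusted p = 0.0117, edgeR) on day 29 with 4 of 5 below. The day 8 call of Abcg8 was lost without female replicate 1, 3 or 4 or male replicate 3 or 4, at -1.63 to -1.85, and the day 29 call without male replicate 3, at -1.58.

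Abcc2 was higher in females of day 8, at 931, 815, 878, 1321 and 1111 CPM against 495, 424, 384, 748 and 554 CPM in males, 5 of 5 above. The difference was 0.96 (SE 0.22, adjusted p = 0.00403, edgeR), and 0.49 (SE 0.22, adjusted p = 0.114, edgeR) on day 29, where the criteria were not met. Abcg2 was higher in females of day 8 by 1.33 (SE 0.42, adjusted p = 0.0429, edgeR; 4 of 5 above), a call lost without female replicate 1 (0.88), 2 or 5 or male replicate 1, 2, 3 or 4. Abcb1a differed by 0.77 (SE 0.26) on day 8 (adjusted p = 0.0538, edgeR) and 0.67 (SE 0.26) on day 29 (adjusted p = 0.0735, edgeR), short of the criteria, while DESeq2 called it on day 8 (adjusted p = 0.0299). Abcb1b differed by -0.06 (SE 0.51, adjusted p = 0.964, edgeR) and 0.85 (SE 0.50, adjusted p = 0.251, edgeR).

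**Figure D4:**
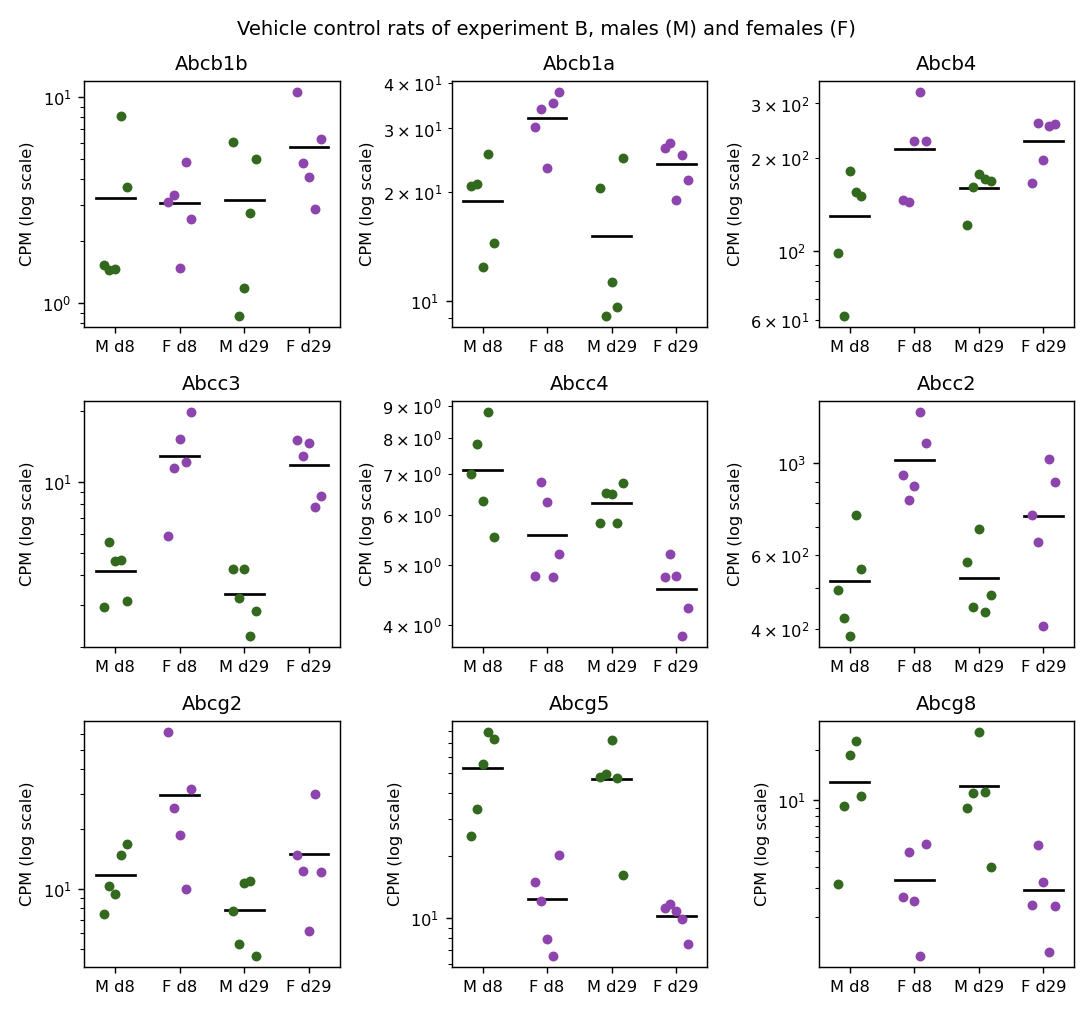
The 9 genes in vehicle rats of experiment B, in CPM on log scales that differ between panels (vertical axes), for males (M, green) and females (F, purple) of day 8 and day 29, with bars at group means of 5 rats. Females lie above males for Abcc3, with means of 12.9 against 4.17 CPM on day 8, and below them for Abcg5, with 12.4 against 53.1 CPM.

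No member was called between vehicle rats of day 29 and day 8, in males (0.0266% of genes called) or in females (0.859%). By edgeR, 0 and 2 members had an unadjusted p under 0.05 in these comparisons, and DESeq2 called 0 in both. Between vehicle males of day 8 of experiments A and B, which differ in supplier and age range, 0 members were called by edgeR (1.22% of genes called), with 3 at an unadjusted p under 0.05. Abcc2 was lower in experiment A by a log2 difference of -0.72 (SE 0.22, adjusted p = 0.0892, edgeR), 5 of 5 rats below (5.07% of genes did not overlap), and DESeq2 called it (adjusted p = 0.0370).

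Differences in response are given as a description, since they are formed from the dose comparisons on which the genes were picked. The log2 fold change of Abcb1b at the highest dose, females minus males, differed by 0.84 (SE 0.76) on day 8 and 1.37 (SE 0.75) on day 29. Day 29 minus day 8 it was -1.37 (SE 0.76) in males and -0.84 (SE 0.75) in females. At 1000 mkd the response of experiment A minus that of experiment B males was 1.12 (SE 0.76) for Abcb1b and 1.52 (SE 0.64) for Abcc3. No sex, day or experiment is therefore shown to differ from another in its Abcb1b response, nor to be equal to it.

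Within dose groups, the 9 genes varied to different degrees between rats. Abcb1b had an SD of 0.94 on the log2 scale, higher than 98.0% of 11890 genes, followed by Abcg8 at 0.78, Abcc3 at 0.62, Abcg5 at 0.58 and Abcg2 at 0.56. Covariation was measured on deviations from the group mean over all rats, which removes the differences in mean between groups. Of 36 pairs, 8 were positively and 1 negatively related at an adjusted p of at most 0.05 (two-sided permutation test within groups, Benjamini-Hochberg over the 36 pairs).

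Abcg5 and Abcg8 were the closest pair, at Pearson's r = 0.81 and Spearman's rho = 0.78 (permutation adjusted p = 0.00018 for both, the raw p of 1e-05 being the smallest that 100000 permutations can give). Without the 2 farthest rats r was 0.79. Within tables r was 0.85 in experiment A, 0.72 and 0.90 in males of days 8 and 29, and 0.75 and 0.79 in females of days 8 and 29. Each was the other's closest gene of 11889.

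Abcb1b and Abcc3 were related at r = 0.47 and rho = 0.43 (permutation adjusted p = 0.00018 for both), or r = 0.47 without the 2 farthest rats. Within tables r was 0.19 in experiment A, 0.45 and 0.54 in males and 0.53 and 0.57 in females. In the 25 vehicle rats alone it was 0.005, a value that is imprecise with so few rats. Whether the relation reflects the spread of the response between dosed rats was not tested. Abcb1a was related to Abcc2 (r = 0.37 and rho = 0.34, permutation adjusted p = 0.00036 and 0.00180), to Abcc4 (0.32 and 0.32, permutation adjusted p = 0.00720 and 0.00468) and to Abcb1b (0.26 and 0.25, permutation adjusted p = 0.0265 and 0.0350), the last being the pair that may share reads. Abcc2 was related to Abcg2 (0.33 and 0.34, permutation adjusted p = 0.00234 and 0.00180) and to Abcb4 (0.24 and 0.25, permutation adjusted p = 0.0359 and 0.0317). These 5 pairs stayed past the threshold without the 2 farthest rats, at r = 0.24 to 0.34. Abcb1a with Abcc4, Abcb1a with Abcb1b and Abcc2 with Abcg2 fell short of it in experiment B alone and in vehicle rats alone. For Abcb1a with Abcc4, r was 0.60 in experiment A and 0.76 in males of day 8. It was 0.09 in males of day 29, and -0.04 and 0.11 in females of days 8 and 29. Abcc3 with Abcc4 (0.24 and 0.20, permutation adjusted p = 0.0369 and 0.0815) and Abcc3 with Abcg5 (-0.24 and -0.22, permutation adjusted p = 0.0419 and 0.0531) passed by r alone and rested on the 2 farthest rats, without which r was 0.22 and -0.16. In experiment B alone 4 of the 9 pairs were past the threshold, and in vehicle rats alone 1, Abcg5 with Abcg8.

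**Figure D5:**
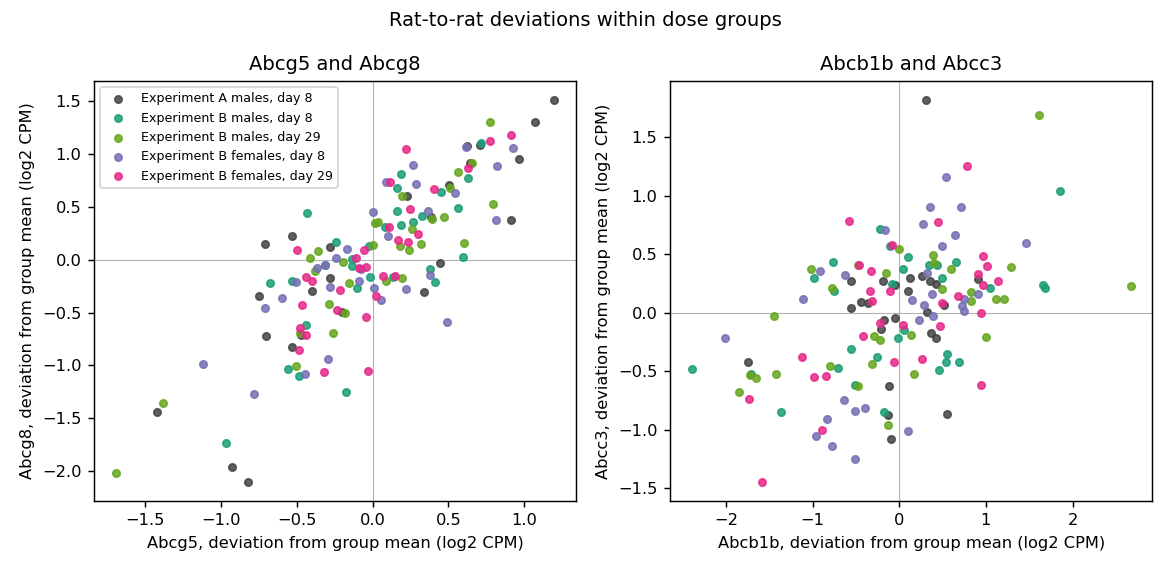
Deviations of single rats from the mean of their dose group, on the log2 CPM scale, for Abcg8 against Abcg5 (left) and Abcc3 against Abcb1b (right), with rats coloured by table. The left points follow a line (r = 0.81), and the right points scatter more widely (r = 0.47).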

How the data were processed

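Liver RNA of 145 rats was sequenced as stranded poly(A) libraries. The authors trimmed the reads with Trimmomatic, aligned them to Rn6 with Bowtie2, counted them on genes with HTSeq and deposited raw counts in 5 tables, with no normalization; versions are not given in the sources used here. Summary lines (35.5 to 67.1% of the counts of a rat in experiment B) were left out.

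Counts were fitted per table in edgeR 4.0.16 (R 4.3.3; TMM, filterByExpr, all dose groups, quasi-likelihood F-test, checked on simulated data). Calls needed a fold change of at least 1.5 and an FDR of at most 0.05. An SE is the absolute log2 fold change divided by the square root of F. Vehicle groups shared a fit, and differences in response were interaction terms, given without a p-value. Covariation used log2 CPM with a prior count of 2.

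The 9 members and all lists were chosen with earlier results of these data known. Named genes are all members, the 5 genes most like Abcb1b, other ABC genes called at the highest dose in at least 2 tables, and regulators called at any highest dose, of which 1 is not reported here. Marker lists covered hepatocytes, cholangiocytes, macrophages, T and NK cells, endothelial and erythroid cells, the cell cycle and sex-typical liver genes. The lists not described in the report follow, at the highest dose. Experiment A (21.4% of all genes called) had 1 of 5 cholangiocyte markers up, and 2 of 5 erythroid, 3 of 3 male liver and 1 of 3 female liver markers down. Females of day 29 (13.1%) had 2 of 5 cholangiocyte markers up, and 3 of 5 erythroid and 3 of 3 female liver markers down. Males of day 29 (4.91%) had 1 of 5 cholangiocyte markers up. Of the 2 male chromosome markers in the files 0 were called.

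The alternatives tried were the DESeq2 Wald test (1.42.0), its size factors in edgeR, the unfiltered gene list and a minimum of 10 counts in each rat. Others were a fit of vehicle and the highest dose alone, the replicate number as a block, and all rats in the vehicle fit. Each vehicle and highest-dose rat of a table, and each rat of a joint fit, was also left out in turn. Calls at lower doses were not checked by leaving out rats. Promoter windows and names came from RefSeq (GRCr8), not from the build of the counts, and windows were matched by symbol for 8 of the 9 members, not Abcc3.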

Additional observations from a re-analysis of the deposited data

Results flagged for a closer look

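Among 261 groups of 5 rats (9 genes in 29 groups), the highest or lowest rat stood far from the other 4 in 17, or 6.51%. The cut-off, a gap above 0.71 of the range, is set for about 5% of independent groups of normal values. CPM were not transformed here and the genes share rats, so 5% is not a chance rate for these groups. For Abcb1b these were replicate 1 at 300 mkd in males of day 8 (8.58 CPM) and in males of day 29 (13.2 CPM), both the highest of their group. For Abcc3 they were replicate 2 at 1000 mkd in experiment A (31.0 CPM), replicate 2 at 500 mkd (41.3 CPM) and replicate 3 at 1000 mkd (42.2 CPM) in females of day 29, all highest, and replicate 5 at 30 mkd in experiment A (1.57 CPM), the lowest. In females of day 29, replicate 3 at 1000 mkd was also the highest for Abcg5 (28.5 CPM) and Abcg8 (8.81 CPM), and replicate 3 at 750 mkd for Abcg8 (4.65 CPM) and Abcc4 (5.39 CPM). The others in females of day 29 were Abcc2 in replicate 2 at 750 mkd (761 CPM, highest), Abcg2 in replicate 4 at 300 mkd (45.7 CPM, highest) and Abcb1a in replicate 2 at 1500 mkd (10.7 CPM, lowest). In females of day 8, replicate 2 at 500 mkd was the highest for Abcg2 (25.2 CPM) and replicate 3 at 500 mkd for Abcg5 (31.3 CPM). In males of day 29, vehicle replicate 1 was the lowest for Abcb4 (126 CPM) and replicate 5 at 750 mkd the highest for Abcg8 (15.1 CPM).

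In 3 cases every rat of one dose group lay above the mean of its own vehicle group and every rat of another lay below its own. Abcc4 at 1000 mkd was above in experiment A and below in males of day 29, a difference of 0.60 between the log2 ratios of mean CPM. Abcg2 at 300 mkd was above in females of day 29 and below in females of day 8 (1.41), and at 500 mkd above in males of day 29 and below in females of day 8 (1.75). These differences were not tested.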

How the results depend on the processing

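Of 686 values recomputed under the alternatives, 385 were counts, which carry no sign, and 301 were single-gene or pair values. Among the latter 1 changed sign, which was r between Abcc3 and Abcg5 in vehicle rats alone (0.079). Vehicle differences and pairs were judged by the threshold, which 28 of their values no longer passed. Log2 fold changes at the highest dose were judged by size against the SD between rats, whatever the call, and 2 moved. Their calls were lost for Abcb1b in males of day 8 and Abcc3 in males of day 29, in the fits listed below. Under DESeq2 the members called became 2 in females of day 8 (Abcc3 added), 3 in females of day 29 (Abcc2 added), 6 between the sexes on day 8 (Abcb1a added) and 1 between vehicle males of experiments A and B (Abcc2), other ABC genes called in females of day 8 became 1 (Abca8a), and regulators called became 1 in males of day 8 (Rxra), in females of day 8 and in females of day 29 (Nr1i3 in both). With at least 10 counts in every rat, 6 other ABC genes were called in experiment A in place of 10. With only vehicle and the highest dose in the fit, 1 member and 1 other ABC gene were called in males of day 29 and 1 other ABC gene in females of day 29 in place of 6. Leaving out 1 rat gave 0 to 1 members in males of day 8 (0 without vehicle replicate 1, 2 or 3 or treated replicate 1, 3 or 4), 1 to 2 in males of day 29 (1 without vehicle replicate 2 or 4 or treated replicate 3), 1 to 3 in females of day 8 (3 without treated replicate 1, 2 without treated replicate 5) and 2 to 4 in females of day 29 (4 without vehicle replicate 3). Between the sexes it gave 3 to 5 on day 8 (3 without male replicate 3 or female replicate 1) and 2 to 4 on day 29. Other ABC genes called then numbered 7 to 12 in experiment A, 0 to 4 in males of day 29 (0 without vehicle replicate 4, 1 without vehicle replicate 2 or treated replicate 1 or 2, 4 without treated replicate 3), 0 to 2 in females of day 8 (2 without treated replicate 1 or 5) and 3 to 9 in females of day 29 (3 without treated replicate 2). Of the 9 member pairs, 1 was past the threshold in vehicle rats alone and 4 in experiment B alone. Same-numbered rats of vehicle and highest dose correlated above 0.1 in 2 to 4 of 5 replicate numbers per table. The median r was -0.009 in experiment A and 0.116 to 0.228 in the tables of experiment B. The numbers were not taken as pairs, so the main fits leave any such likeness out. With the replicate number as a block, the count between the sexes on day 8 stayed at 5, with Abcb4 gained (log2 difference 0.72, adjusted p = 0.0232, edgeR) and Abcg2 lost (1.28, adjusted p = 0.0552). The block changed no other call of a member. In females of day 29 at 1000 mkd DESeq2 called 2 members against 1 by edgeR. Over all genes, edgeR and DESeq2 called 20 and 174 at 1500 mkd in males of day 8, 88 and 310 at 750 mkd and 311 and 640 at 1000 mkd in males of day 29, and 2 and 11 at 500 mkd, 2 and 227 at 750 mkd, 158 and 256 at 1000 mkd and 81 and 341 at 1500 mkd in females of day 8. In females of day 29 they called 4 and 65 at 500 mkd, 21 and 153 at 750 mkd and 182 and 461 at 1000 mkd, and between vehicle groups 3 and 11 (days, males), 97 and 267 (days, females) and 138 and 287 (experiments). The cause was not tested. With a lowest count of 13, counting error was largest at the lowest levels.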
